A study of Rattus norvegicus with 24 samples.

Results

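The comparison is of saturated fat feeding against normal chow in the left ventricle of sham-operated rats. It was made over the 12 arrays whose labels give a sham operation, 6 with saturated fat chow and 6 with normal chow, out of 24 arrays in the series. All rats were male Wistar rats of 300 to 350 g, no genetic change is named in the labels, and each array held RNA of 1 animal. The sham fat group ate a chow with 60% of its calories from fat, of which 25% was palmitic acid, 33% stearic acid and 33% oleic acid, and the sham chow group ate normal chow. Another 12 rats had the left coronary artery tied, 6 on saturated fat chow and 6 on normal chow, and they share no animal with the sham groups. Feeding began straight after the operation, and the labels place procedures at 3 to 6 hours of darkness under a reversed light schedule. The length of feeding is not stated in the labels, and the arrays came from a separate set of animals.

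The heart draws most of its fuel from fatty acids. Fatty acids that enter a cardiac myocyte bind the nuclear receptor PPAR-alpha, which pairs with a retinoid X receptor on DNA and turns on genes of fatty acid transport, oxidation and thioester hydrolysis, as well as genes that hold back the use of glucose. Circulating triglyceride is cleaved at the capillary wall by lipoprotein lipase, an enzyme that GPIHBP1 anchors there and that ANGPTL4 inhibits. The question this comparison answers is which ventricular transcripts differ with the diet when the coronary artery is intact.

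Each array carried 22517 probes, of which 8972 to 9933 were detected on a sham array at a detection p under 0.05. A total of 10343 genes passed the filter and were tested. Levels are log2 intensities after background correction and quantile normalization, so a difference of 1 is a doubling of signal, and levels of different genes cannot be set against each other. Background signal split the 24 arrays into a high and a low set with no label to explain it: 3 of 6 sham fat arrays and 2 of 6 sham chow arrays had the high background. The tissue label was checked against 17 cardiomyocyte markers, and all 17 were detected on every sham array. In bulk tissue, fewer cells of a type and less RNA per cell cannot be told apart.

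At a Benjamini-Hochberg adjusted p under 0.05, 2 genes (0.0193% of the genes tested) rose in sham fat hearts and 0 (0%) fell, by limma's moderated test. Angptl4, a textbook target of PPAR-alpha, had the smallest p of all genes. The count was 1 without any single one of sham fat animals 11, 12, 17, 34 and 35 and sham chow animals 9, 15, 22 and 40, and 5 without sham chow animal 7. At an unadjusted p under 0.05 there were 353 genes (3.41%) with a higher mean in sham fat hearts and 266 (2.57%) with a lower one, 619 in all, while 517.15 would be expected with no difference anywhere. The median difference over all genes was 0.00 on the log2 scale, 50.6% of genes had a positive difference, and the quartiles of the differences were −0.09 and 0.10. Differences beyond 1 on the log2 scale were seen for 14 genes with a positive difference and 5 with a negative one. The 6 animals of each group did not overlap for 31 genes (0.3%) with higher values in sham fat hearts and 19 genes (0.184%) with lower ones.

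Angptl4, the secreted inhibitor of lipoprotein lipase, had a lowest, median and highest level of 7.52, 8.66 and 8.99 in sham fat hearts, against 5.68, 6.33 and 6.80 in sham chow hearts. All 6 sham fat animals lay above all 6 sham chow animals, where the probe was detected in 4 of 6. The difference was 2.23 on the log2 scale (SE 0.34, 95% confidence interval 1.52 to 2.94, adjusted p = 0.0095), a 4.70-fold rise. The call held with each of the 12 sham arrays left out in turn (adjusted p 0.00265 to 0.0493). It was 2.56 in a fit of the high-background arrays and 1.95 in one of the low-background arrays. A second kept probe for the same transcript differed by only 0.22 (unadjusted p = 0.0544). That probe read 5.87 to 6.50 in sham fat hearts and 5.84 to 6.35 in sham chow hearts and was detected on 13 of 24 arrays, so it stayed close to background and the rise rests on the brighter probe.

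Bdh1, which interconverts the ketone bodies acetoacetate and beta-hydroxybutyrate, had a difference of −0.51 (adjusted p = 0.431), and its 6 sham fat animals, at 9.60 to 10.14, lay below the sham chow animals, at 10.15 to 10.59. Of the 6 genes of ketone body making and use that were tested, 5 had a positive difference and 1 a negative one.

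Promoters of 3 genes are shown because they stand for the called gene with the smallest p, for a gene that was called only with a clock covariate in the fit, and for the clock itself. They are the 250 bases before the start of the gene in RefSeq on build GRCr8. Capitals mark the half-site AGGTCA that PPAR-alpha and its partner recognise as a repeat, and the site TTATGTAA, an instance of the D-box (TTA, any base, GTAA) that DBP, TEF and NFIL3 bind.
Angptl4 promoter, chr7:15258682-15258931, minus strand: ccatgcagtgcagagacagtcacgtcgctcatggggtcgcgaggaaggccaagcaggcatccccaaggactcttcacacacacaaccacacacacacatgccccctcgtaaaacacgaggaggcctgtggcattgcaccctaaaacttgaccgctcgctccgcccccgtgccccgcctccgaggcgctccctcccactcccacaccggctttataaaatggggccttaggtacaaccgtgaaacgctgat
Ucp3 promoter, chr1:164227660-164227909, plus strand: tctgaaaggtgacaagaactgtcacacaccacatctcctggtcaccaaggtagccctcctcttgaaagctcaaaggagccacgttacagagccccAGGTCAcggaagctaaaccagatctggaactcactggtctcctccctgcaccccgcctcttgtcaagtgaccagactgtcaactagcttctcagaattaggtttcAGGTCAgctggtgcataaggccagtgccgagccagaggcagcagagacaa
Per2 promoter, chr9:99496994-99497243, minus strand: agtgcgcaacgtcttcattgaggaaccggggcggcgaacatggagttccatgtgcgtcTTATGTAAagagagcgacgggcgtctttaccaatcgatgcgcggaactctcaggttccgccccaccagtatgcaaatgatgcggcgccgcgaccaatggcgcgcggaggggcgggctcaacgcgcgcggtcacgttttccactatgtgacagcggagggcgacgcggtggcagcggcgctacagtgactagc
Promoters of 52 of the 67 named genes were in the table, and both strands were searched over 300 bases, 250 before and 50 after the start. The full direct repeat (AGGTCA, any base, AGGTCA) was in 0 of the 52 and in 0.0538% of 33469 promoters, and the looser form with any base at the fourth place of each site was in 0 and in 0.415%. Single half-sites, searched for after the repeat had given no match, were in 8 of 52 and in 16.2% of all promoters. The Ucp3 promoter held 2 of them, starting 155 and 50 bases before the gene, and the Angptl4 promoter held none. The D-box stood in the Per2 promoter alone among the named genes, starting 192 bases before the gene, and in 2.24% of all promoters. CACGTG, the E-box of the clock, was in 3 of 52 (Sc5d, Bnip3 and Plin2) and in 6.42% of all promoters. No match says only that these letters are not in this window.

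Of 28 tested genes on the list of PPAR-alpha-responsive genes, 23 had a positive and 5 a negative difference, 2 rose at the adjusted threshold (0.0193% over all genes) and 10 had a higher level at an unadjusted p under 0.05 (3.41% over all genes), against 0 with a lower one (2.57%). Their median difference was 0.12, and 0.00 over all genes. With any 1 sham array left out, 21 to 24 of the 28 differences were positive. In the high-background arrays 25 of 28 were positive with a median of 0.13, and in the low-background arrays 22 of 28 with a median of 0.12.

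Acot1, the cytosolic thioesterase that releases free fatty acid from acyl-CoA, had a lowest, median and highest level of 8.33, 8.95 and 9.02 in sham fat hearts, against 7.08, 7.54 and 8.82 in sham chow hearts. Sham chow animal 7 reached 8.82 and overlapped the fat group, and the next chow animal stood at 7.70. The difference was 1.16 (SE 0.29, adjusted p = 0.311), and without chow animal 7 it was 1.39 (adjusted p = 0.0477). Acot2, its mitochondrial relative, read 8.63 to 8.92 in sham fat hearts and 7.82 to 8.72 in sham chow hearts (difference 0.56, adjusted p = 0.564). Transcripts of near-identical Acot genes could hybridise to the same probe, and the files do not give the probe sequence, so the split between them is uncertain.

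Pdk4, the kinase that shuts pyruvate dehydrogenase and so spares glucose, had a lowest, median and highest level of 9.20, 10.16 and 10.56 in sham fat hearts, against 8.78, 9.18 and 9.49 in sham chow hearts. Of the 6 sham fat animals, 5 lay above every chow animal. The difference was 0.90 (SE 0.23, adjusted p = 0.344). Ucp3, a mitochondrial carrier of muscle linked to fatty acid handling, read 8.01, 8.85 and 9.27 in sham fat hearts and 6.88, 8.10 and 8.54 in sham chow hearts, with a difference of 0.83 (SE 0.25, adjusted p = 0.501). With a clock index as a covariate, described with the clock genes, the Ucp3 difference was 1.23 (adjusted p = 0.00119). Txnip, an arrestin-like protein that limits glucose uptake, read 15.07, 15.40 and 15.48 in sham fat hearts and 14.55, 14.81 and 15.14 in sham chow hearts. Only the lowest fat animal overlapped the chow group for Txnip, and its difference of 0.53 (SE 0.11, adjusted p = 0.154) was 0.62 (adjusted p = 0.0429) with the clock covariate.

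**Figure D1:**
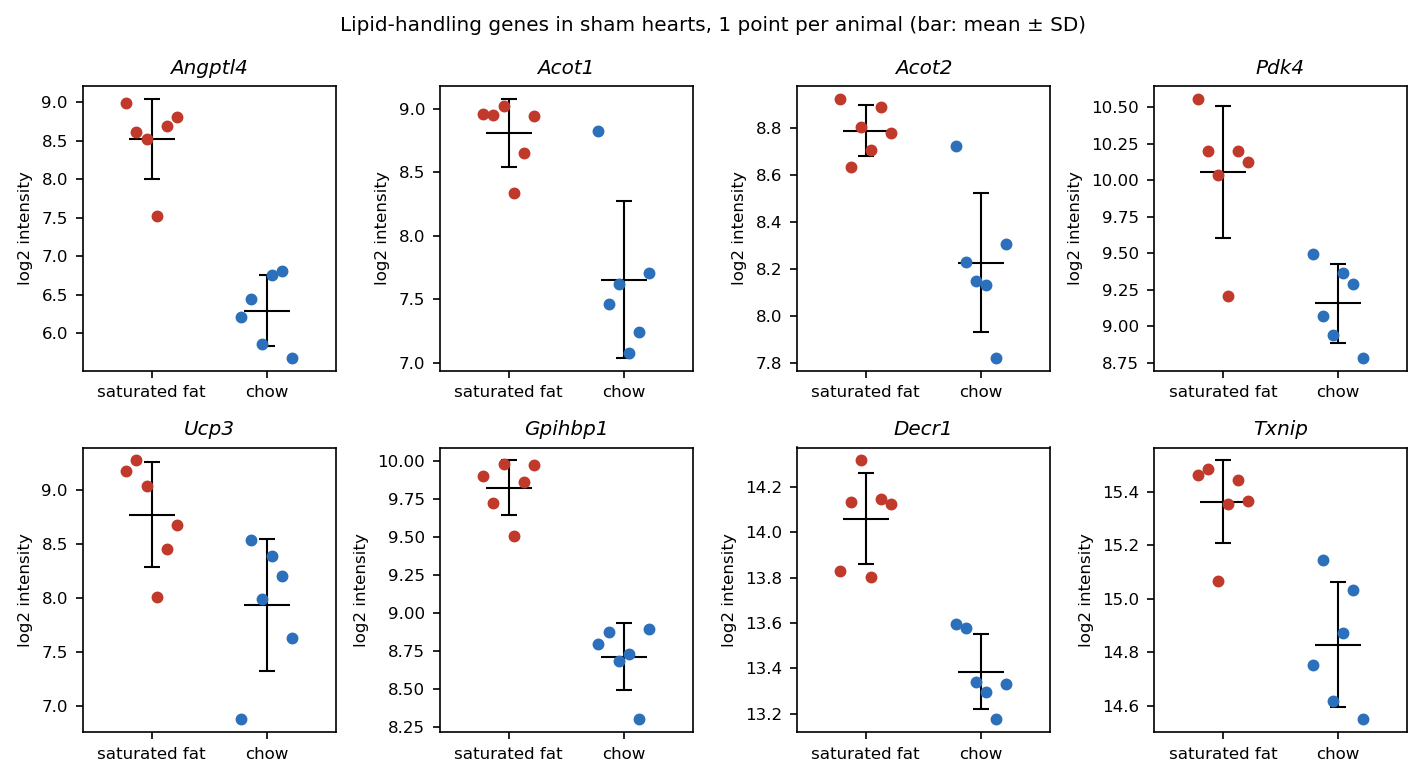
Log2 intensity in sham hearts of 8 genes of lipid handling or, for Pdk4 and Txnip, of glucose use. Each panel has 1 point per animal, saturated fat in red and chow in blue, and bars for the mean ± SD of 6 animals. Angptl4, Gpihbp1 and Decr1 show no overlap between the groups, while chow animal 7 lifts the chow group to 8.82 for Acot1.

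Cyp4b1, Cpt1a and Ech1 are on the list too and differed by 0.59, 0.41 and 0.36 (adjusted p = 0.605, 0.603 and 0.603). Cd36, Plin2 and Acsl1, also members of the list, hardly differed. Cd36, the fatty acid translocase of the plasma membrane, read 13.61, 13.70 and 14.08 in sham fat hearts and 13.26, 13.66 and 14.11 in sham chow hearts (difference 0.09, SE 0.16). Plin2, the coat protein of lipid droplets, differed by −0.07 (SE 0.17), and by 0.05 under median scaling, where the all-gene median was 0.07. Acsl1, which activates long-chain fatty acids to acyl-CoA, differed by 0.06 (SE 0.17). For Cd36, Plin2 and Acsl1 all sham fat animals lay inside the range of the sham chow animals.

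Among 27 tested genes of fatty acid uptake and mitochondrial beta-oxidation, 22 had a positive and 5 a negative difference, with a median of 0.13. None passed the adjusted threshold, 4 had a higher and 1 a lower level at an unadjusted p under 0.05 (3.41% and 2.57% over all genes), and the count of 4 was 2 without sham chow animal 40. Decr1, the reductase that handles the double bonds of unsaturated fatty acids, had a lowest, median and highest level of 13.80, 14.13 and 14.32 in sham fat hearts, against 13.17, 13.34 and 13.59 in sham chow hearts. Its groups did not overlap, and the difference was 0.68 (SE 0.16, adjusted p = 0.249; 0.0377 in a fit of the 12 sham arrays alone). Cpt1a, the liver-type carnitine palmitoyltransferase at the mitochondrial entry step, read 10.49 to 10.69 in sham fat hearts and 9.97 to 10.51 in sham chow hearts (difference 0.41, adjusted p = 0.603). Cpt1b, the muscle-type form, differed by −0.04 (unadjusted p = 0.808). Echs1, the enoyl-CoA hydratase of the spiral, was the member with the most negative difference, −0.25 (unadjusted p = 0.0346).

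In the peroxisome, 10 of 13 tested genes had a positive difference, with a median of 0.04. Ech1, a dienoyl-CoA isomerase, read 14.63 to 14.97 in sham fat hearts and 14.29 to 14.88 in sham chow hearts (difference 0.36, adjusted p = 0.603). Acaa1a, the peroxisomal thiolase, differed by 0.35 (adjusted p = 0.822). Of 10 tested acyl-CoA thioesterases and uncoupling proteins, 9 had a positive difference, with a median of 0.17.

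The list of triglyceride synthesis, lipid droplets and lipolysis had 11 positive and 8 negative differences among 19 tested genes, with a median of 0.05, and 5 higher and 1 lower at an unadjusted p under 0.05, where all genes gave 3.41% and 2.57%. Gpihbp1, the capillary anchor of lipoprotein lipase, had a lowest, median and highest level of 9.51, 9.88 and 9.98 in sham fat hearts, against 8.30, 8.76 and 8.90 in sham chow hearts. Every sham fat animal lay above every sham chow animal. The difference was 1.11 (SE 0.26, adjusted p = 0.249), and 0.00122 was its adjusted p in a fit of the 12 sham arrays alone. Lpl, the lipase that GPIHBP1 anchors, differed by 0.01. It lies near the top of the scale, on average at 75% or more of an array's highest signal. Differences could be compressed there, which was not tested. Dgat2, which adds the last acyl chain of triglyceride, read 8.90, 9.90 and 10.12 in sham fat hearts and 8.32, 8.60 and 9.83 in sham chow hearts (adjusted p = 0.425), and was chosen for mention after its values were seen. Of the lipases inside the cell, Lipe differed by 0.43 (unadjusted p = 0.0127) and Pnpla2 by 0.25 (unadjusted p = 0.0253).

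Pathways downstream of fatty acid oxidation, and those of glucose use, had medians near that of all genes. Oxidative phosphorylation had 20 positive and 21 negative differences among 41 tested genes, with a median of 0.00. The tricarboxylic acid cycle had 10 positive and 7 negative ones among 17, with a median of 0.01. Idh3b, a subunit of the NAD-dependent isocitrate dehydrogenase, read 9.52 to 9.94 in sham fat hearts and 9.19 to 9.60 in sham chow hearts (difference 0.38, adjusted p = 0.564). Glucose uptake, glycolysis and glycogen had 10 positive and 12 negative differences among 22 genes, with a median of 0.00. Slc2a4, the insulin-responsive glucose transporter, differed by 0.12 (SE 0.13). Pygb, a glycogen phosphorylase, had no overlap between groups, with 13.40 to 13.65 in sham fat hearts and 13.05 to 13.29 in sham chow hearts (difference 0.29, adjusted p = 0.431). Apart from Pdk4, no gene of the 12 on the pyruvate dehydrogenase list passed an unadjusted p under 0.05, and the median was −0.01.

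Cholesterol and fatty acid synthesis had 10 positive and 11 negative differences among 21 genes, with a median of −0.02. Scd, the desaturase that turns stearic into oleic acid, ranged from 5.40 to 8.30 in sham fat hearts and from 5.53 to 8.64 in sham chow hearts, so that the animals within a group differed far more than the groups (difference 0.19, SE 0.51). Scd was detected in 3 of 6 sham fat and 5 of 6 sham chow animals, and the lowest value of each group was undetected. Acly, the enzyme that makes cytosolic acetyl-CoA from citrate, differed by 0.24 and Sc5d, of the sterol pathway, by 0.54 (unadjusted p = 0.0323 and 0.0475).

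**Figure D2:**
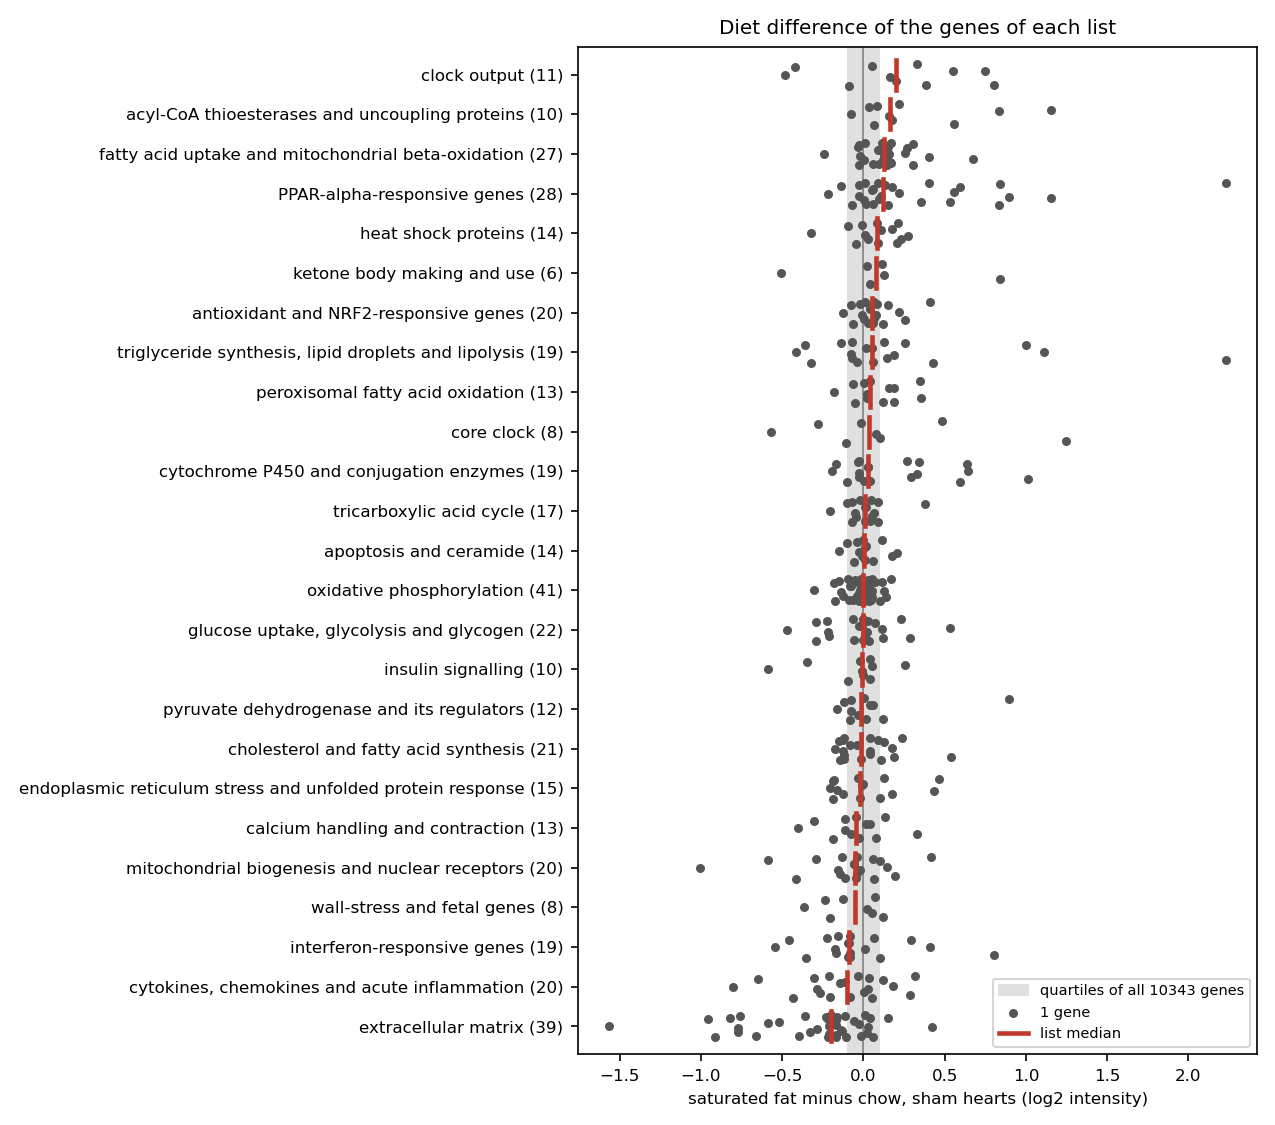
Saturated fat minus chow difference in sham hearts, in log2 intensity, for each tested gene (points) of 25 pathway lists, with the list median in red and the number of tested genes in brackets. The grey band spans the quartiles of all 10343 genes, −0.09 to 0.10, and shows the spread of single genes, so the points can be read against it and the medians cannot. From top to bottom the medians run from 0.20 for clock output to −0.20 for extracellular matrix, with 0.12 for the PPAR-alpha list.

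The receptor itself stood on the other side. Ppara, the gene of PPAR-alpha, had a lowest, median and highest level of 6.02, 7.05 and 7.18 in sham fat hearts, against 7.51, 7.77 and 8.61 in sham chow hearts. All 6 sham fat animals lay below all 6 sham chow animals. The difference was −1.01 (SE 0.24, adjusted p = 0.297), with −0.78 in the high-background and −1.18 in the low-background arrays. In ligated hearts the same contrast gave −0.02, and the difference between the surgeries did not pass the test (−0.99, unadjusted p = 0.0078, adjusted p = 0.881). Pparg, its relative best known from fat cells, went the other way by 0.42 (adjusted p = 0.649) with no overlap, and Ppard differed by 0.06. Rxrg, a retinoid X receptor of muscle, read 12.90 to 13.36 in sham fat hearts and 13.22 to 13.74 in sham chow hearts (difference −0.29, adjusted p = 0.564). Ppargc1b, a coactivator of mitochondrial genes, differed by −0.59 (adjusted p = 0.564) and Ppargc1a by −0.16. Of the 20 genes on the list of mitochondrial biogenesis and nuclear receptors, 6 had a positive and 14 a negative difference, with a median of −0.05.

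Genes outside lipid metabolism were among those with the smallest p. Oas1k, a gene of the 2'-5' oligoadenylate synthetase family, whose members sense double-stranded RNA, had a lowest, median and highest level of 7.45, 7.83 and 8.55 in sham fat hearts, against 5.77, 6.46 and 6.68 in sham chow hearts. The groups did not overlap (difference 1.55, SE 0.29, adjusted p = 0.0671; 0.0062 in a fit of the 12 sham arrays alone). Oas1a, its close relative, read 6.81 to 7.79 in sham fat hearts and 5.97 to 6.66 in sham chow hearts (difference 0.80, adjusted p = 0.49). These 2 genes come from a family of near-identical copies, and their probes may share targets. Of 19 interferon-responsive genes, Oas1a among them, 6 had a positive and 13 a negative difference, with a median of −0.09, and Ifi27 had −0.54 on 1 probe and −0.60 on another.

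Pllp, a membrane protein of myelin and epithelia, read 7.83, 8.30 and 8.52 in sham fat hearts and 8.86, 9.03 and 9.26 in sham chow hearts (difference −0.77, SE 0.15, adjusted p = 0.113). Map4k1, a kinase of blood cells, read 7.28 to 7.64 in sham fat hearts and 7.68 to 8.13 in sham chow hearts (difference −0.48, adjusted p = 0.155). Both sets of animals were fully apart for these 2 genes. Bcl2l1-ps1, annotated as a pseudogene and named here through its gene ID, differed by 1.06 (adjusted p = 0.249), and its parent gene could share the probe. That probe was detected in 6 of 6 sham fat and 3 of 6 sham chow hearts. BC086402 was detected in 6 of 6 sham fat and 0 of 6 sham chow hearts and was at least 1.22-fold higher in sham fat hearts (adjusted p = 0.155).

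Pik3c2g, a class II phosphoinositide kinase, and Zbtb16, a zinc-finger repressor, had the second and the third largest positive differences among all genes tested and were chosen after their values were seen. Pik3c2g read 9.88, 10.66 and 11.54 in sham fat hearts and 7.81, 8.23 and 10.65 in sham chow hearts (difference 2.04, adjusted p = 0.311). Zbtb16 read 7.20, 8.20 and 9.00 in sham fat hearts and 5.85, 6.19 and 7.94 in sham chow hearts (difference 1.71, adjusted p = 0.391). Zbtb16 was detected in 6 of 6 sham fat and 4 of 6 sham chow hearts. For both Pik3c2g and Zbtb16 at least 1 chow animal reached into the range of the fat group. Among drug and steroid metabolising enzymes, 12 of 19 had a positive difference, and 5 were higher and 0 lower at an unadjusted p under 0.05 (all genes 3.41% and 2.57%), or 3 higher without chow animal 13. Sult1a1, a phenol sulfotransferase, read 9.61, 10.40 and 10.74 in sham fat hearts and 8.83, 9.21 and 9.82 in sham chow hearts (difference 1.01, adjusted p = 0.453), and Cyp4b1, a fatty acid hydroxylase, differed by 0.59 (adjusted p = 0.605).

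Irs1, the docking protein of the insulin receptor, read 6.09, 6.56 and 6.96 in sham fat hearts and 6.95, 7.02 and 7.44 in sham chow hearts. The difference was −0.59 (SE 0.16, adjusted p = 0.391), and 5 of 6 fat animals lay below every chow animal. Over the 10 insulin signalling genes the median was −0.01, with 4 positive and 6 negative differences. In the stress pathways 0 of 20 antioxidant genes, 0 of 14 heat shock genes and 0 of 14 genes of apoptosis and ceramide passed an unadjusted p under 0.05 in either direction. All genes gave 3.41% higher and 2.57% lower, or about 1 gene in a list of that size, so these counts lie near the background. For endoplasmic reticulum stress, 2 of 15 genes were higher and 1 lower at that threshold, and 0 were higher without fat animal 17 or 34. Herpud1, of protein degradation at that membrane, differed by 0.43 and Atf3, a stress-induced transcription factor, by 0.47.

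Extracellular matrix genes had 7 positive and 32 negative differences among 39 tested genes, with a median of −0.20, and 8 were lower and 1 higher at an unadjusted p under 0.05, against 2.57% lower and 3.41% higher over all genes. Col1a1, a chain of type I collagen, had a lowest, median and highest level of 9.03, 9.22 and 9.88 in sham fat hearts, against 9.52, 10.23 and 11.72 in sham chow hearts (difference −0.96, SE 0.32, adjusted p = 0.591). Postn, periostin of activated fibroblasts, read 6.96, 7.44 and 8.58 in sham fat hearts and 6.75, 8.70 and 12.32 in sham chow hearts (difference −1.57, adjusted p = 0.796; chosen after its values were seen). Sham chow animal 15 gave the highest value of both genes. Without it the list had 12 positive and 27 negative differences and a median of −0.12, 2 genes were lower and 2 higher at the unadjusted threshold, Col1a1 differed by −0.67 and Postn by −0.92. Within the high-background arrays, which hold that animal, 37 of 39 differences were negative with a median of −0.53, and within the low-background arrays 22 of 39 were negative with a median of −0.02. The count of 8 lower genes was 3 without chow animal 22, 4 without fat animal 34 or 35, and 5 without fat animal 11. In ligated hearts the median over the list was −0.05.

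Of 12 fibroblast markers 8 had a negative difference, with a median of −0.17, or −0.05 without chow animal 15, and 0.01 within the low-background arrays. None passed the adjusted threshold. At an unadjusted p under 0.05, 2 were lower, Col1a1 and Fap, and 0 higher, against 2.57% lower and 3.41% higher over all genes. The list shares 5 genes with the matrix list (Dcn, Lum, Col1a1, Col1a2 and Col3a1), 4 of them with a negative difference, so the lists are not independent. The 7 markers outside the matrix list had 3 positive and 4 negative differences, with a median of −0.12. The summed linear intensity of the 12 markers was 62530 to 76230 in sham fat hearts and 59060 to 90660 in sham chow hearts. This sum, like those of other marker lists, gives most weight to the brightest probes. The part of fibroblast number in the matrix values was not tested. Chow animal 15 also had the highest value of Nppa, the atrial natriuretic peptide gene that a strained ventricle expresses, at 12.78, and of Acta1, skeletal alpha-actin of the fetal program, at 15.07. Nppa differed by −0.24 (SE 0.43) between the groups, and by 0.03 without that animal. Nppb, which encodes brain natriuretic peptide, read 12.76 to 13.79 in sham fat hearts and 13.07 to 13.98 in sham chow hearts (difference −0.37, unadjusted p = 0.0504). Wall-stress and fetal genes had 4 positive and 4 negative differences among 8.

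**Figure D3:**
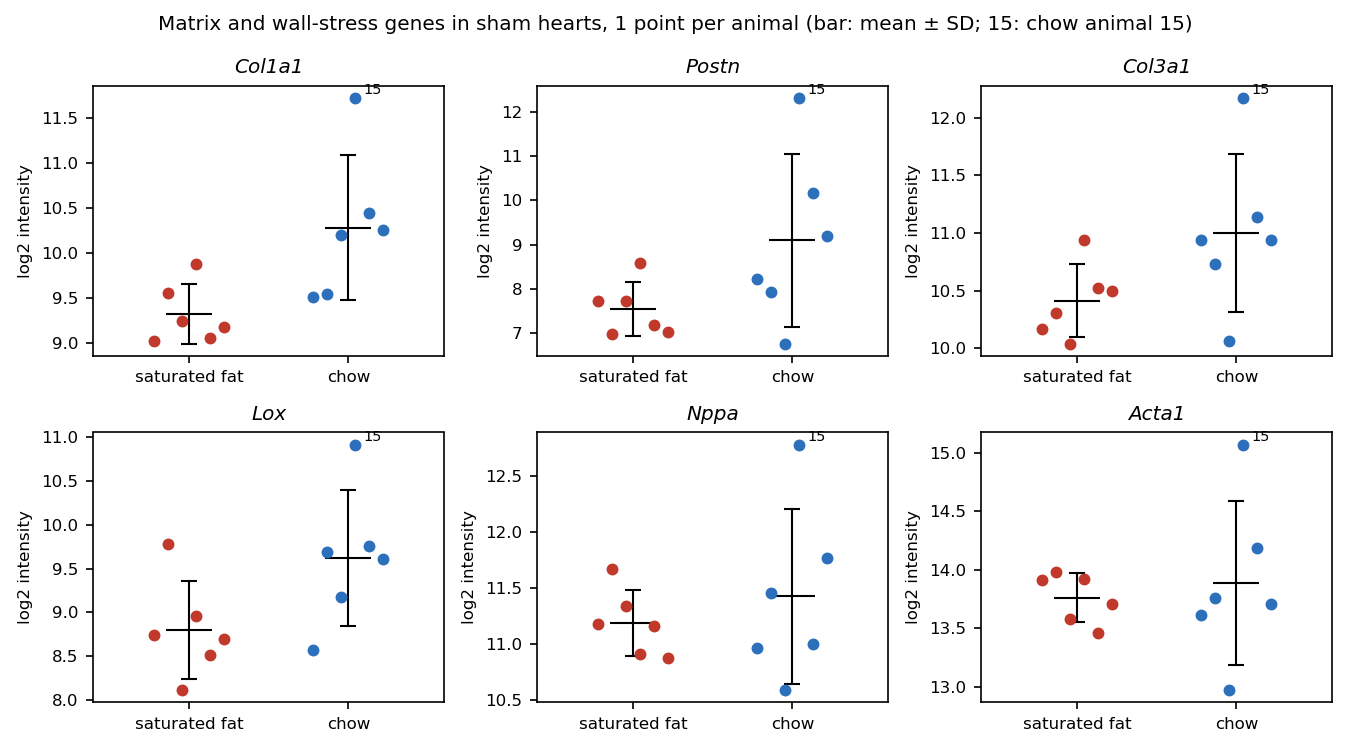
Log2 intensity of 4 matrix genes and 2 wall-stress genes in sham hearts, 1 point per animal, saturated fat in red and chow in blue, with the mean ± SD of 6 animals as bars. Chow animal 15 is the highest point in all 6 panels, at 11.72 for Col1a1 and 12.78 for Nppa.

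Inflammatory genes had 8 positive and 12 negative differences among 20, with a median of −0.10. Ccl2, the monocyte chemoattractant, read 6.57, 6.83 and 8.17 in sham fat hearts and 7.11, 7.80 and 9.02 in sham chow hearts (difference −0.80, adjusted p = 0.774). Tlr2, a receptor for bacterial lipoproteins, differed by −0.65 (adjusted p = 0.81). The groups overlapped for both. Macrophage markers had 4 positive and 6 negative differences among 10, with a median of −0.08, and summed to 4824 to 7284 in sham fat hearts and 5253 to 7949 in sham chow hearts. The part of macrophage content in the inflammatory genes was not tested.

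Markers of other tissues were checked beside the lipid genes. Of the white adipocyte markers, Adipoq, Lep and Plin1 did not pass the detection filter, and the 6 that did had 3 positive and 3 negative differences with a median of −0.01. At an unadjusted p under 0.05, 2 of the 6 were higher in sham fat hearts, Lipe (0.43) and Fabp4, a fatty acid carrier (0.27, unadjusted p = 0.0252), and 0 were lower, against 3.41% and 2.57% of all genes. Lipe, Fabp4, Lpl and Cidec stand on the lipid lists too, and the other 2, Retn and Cfd, had negative differences. The part of adipocyte content in the lipid genes was not tested. The sum of the 6 markers was 77650 to 81250 in sham fat hearts and 72480 to 82550 in sham chow hearts. Bright probes weigh most in it, and Lpl, near the top of the scale, is 1 of the 6. Hepatocyte markers Ttr and Tf, the only 2 kept of 9 listed, both had negative differences. Of 4 atrial markers, 3 had a positive difference, and Myl7, the atrial light chain, ranged from 9.69 to 11.95 in sham fat hearts and from 6.36 to 11.05 in sham chow hearts (difference 1.21, unadjusted p = 0.227). Myl7 levels thus varied widely from animal to animal, and the part of atrial tissue in other differences was not tested. Cardiomyocyte markers had 7 positive and 10 negative differences among 17, with a median of −0.02, but 7 of the 17 lay near the top of the scale.

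Clock genes varied widely between animals of the same diet. Per2, a repressor of the circadian clock, had a lowest, median and highest level of 10.04, 11.98 and 12.41 in sham fat hearts, against 9.53, 10.20 and 12.03 in sham chow hearts (difference 1.24, SE 0.43, adjusted p = 0.605). Fat animal 12 was the lowest of its group and lay among the chow animals, and chow animal 7 was the highest of its group and lay among the fat animals. Bmal1, an activator that peaks at the opposite phase, read 5.25, 5.47 and 6.22 in sham fat hearts and 5.41, 6.22 and 6.74 in sham chow hearts (difference −0.57, adjusted p = 0.812), with detection in 1 of 6 and 4 of 6 animals. Wee1, a cell cycle kinase under clock control, read 9.89, 10.83 and 11.03 in sham fat hearts and 9.53, 9.87 and 10.57 in sham chow hearts (difference 0.75, adjusted p = 0.501). Per1 differed by 0.49 and Dbp by 0.38, but Nr1d1 by −0.28 (SE 0.52) and Per3 by −0.02 (SE 0.12). Nr1d1 ranged from 6.76 to 8.37 in sham fat hearts and from 6.20 to 9.15 in sham chow hearts. Per3 was detected in 3 of 6 sham fat and 2 of 6 sham chow hearts. Of 8 core clock genes 4 had a positive and 4 a negative difference. Of 11 clock output genes 8 had a positive and 3 a negative difference, with a median of 0.20 in sham hearts and −0.06 in ligated hearts.

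A clock index, the mean log2 level of 6 genes (Dbp, Tef, Nr1d1 and the 3 Per genes) minus that of 2 genes of the opposite phase (Bmal1 and Nfil3), put the animals in order. It was −0.61, 1.06 and 1.41 at its lowest, median and highest in sham fat hearts, and −1.17, −0.52 and 1.62 in sham chow hearts. The negative value in the fat group was animal 12, and 1.62 in the chow group was animal 7. Chow animal 40, at 0.87, also had a positive index and lay above fat animal 11, at 0.76. With the index as a covariate, 3 genes were called, Angptl4, Ucp3 and Txnip. Ucp3 and Txnip were not called without it. The index was read from the same arrays, and its mean was 0.83 in sham fat and −0.13 in sham chow hearts. Diet and index are therefore not fully separate in that fit. Sampling time within the 3-hour window is not given per animal, and its part in these values was not tested.

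**Figure D4:**
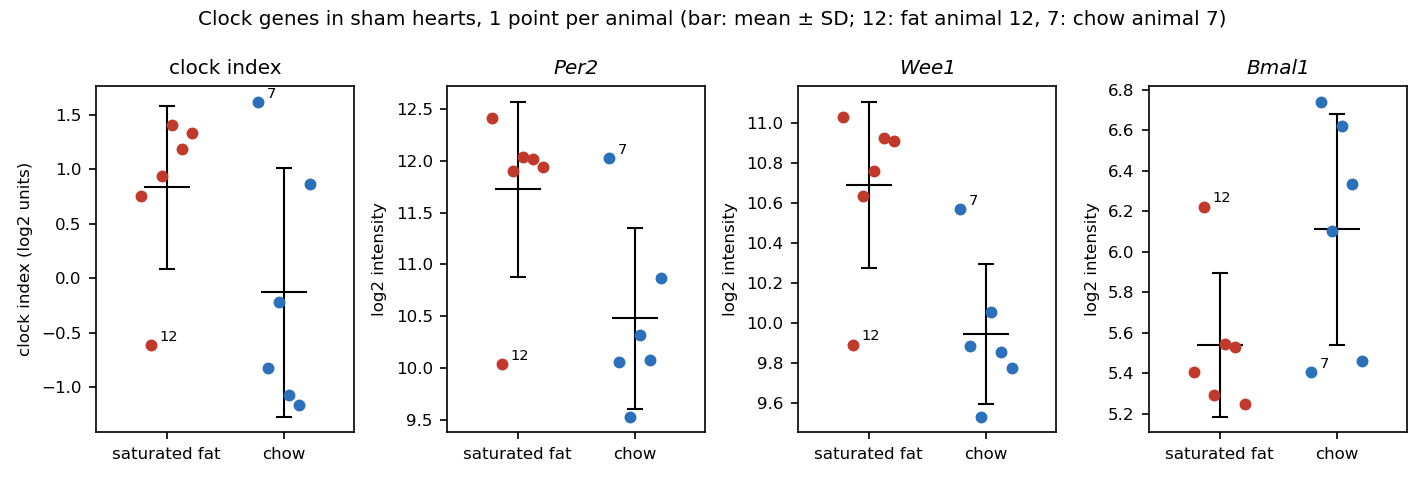
Clock index (log2 units) and log2 intensity of Per2, Wee1 and Bmal1 in sham hearts, 1 point per animal, saturated fat in red and chow in blue, with the mean ± SD of 6 animals. Fat animal 12 has an index of −0.61, below the other 5 of its group, and chow animals 7 and 40 have positive values, 1.62 and 0.87, above fat animal 11 at 0.76.

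The same diet contrast in ligated hearts used other animals. There 1 gene (0.00967%) rose in ligated fat hearts at an adjusted p under 0.05 and 0 (0%) fell. It was Acot1, with a lowest, median and highest level of 7.74, 8.29 and 9.12 in ligated fat hearts, against 5.75, 6.32 and 7.73 in ligated chow hearts, and a difference of 1.85 (SE 0.29, adjusted p = 0.011). The groups did not overlap. The call was lost without any single one of ligated fat animal 5 and ligated chow animals 4 and 24, and with the background set as a block (smallest adjusted p of any gene from 0.051 to 0.08). Without ligated chow animal 38, 7 genes were called. The ligated fat group had 5 of 6 arrays of high background and the ligated chow group 2 of 6, so diet and background were less balanced there than in sham hearts.

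Genes of lipid and glucose use varied in how far their differences in sham and ligated hearts lay apart. Angptl4 differed by 2.23 in sham and 1.89 in ligated hearts (adjusted p = 0.0574 in ligated), Gpihbp1 by 1.11 and 1.15, Pdk4 by 0.90 and 1.03, Ucp3 by 0.83 and 0.81, and Acot2 by 0.56 and 0.57. Larger gaps were seen for Dgat2, with 1.0 in sham and 0.18 in ligated hearts, Decr1 with 0.68 and 0.25, Cyp4b1 with 0.59 and 0.14, and Cpt1a with 0.41 and 0.09, while Acot1 had 1.16 in sham and 1.85 in ligated hearts. Pik3c2g differed by 2.04 and 2.18. Over the PPAR-alpha list the median was 0.12 in sham and 0.17 in ligated hearts, with 23 and 22 of 28 differences positive. Outside lipid metabolism, Oas1k differed by 1.55 in sham and 0.04 in ligated hearts, Per2 by 1.24 and −0.13, and Zbtb16 by 1.71 and 0.22. The test of the difference between the surgeries called 0 genes (0%), and 560 (5.41%) had an unadjusted p under 0.05, so that none of these contrasts between the surgeries was shown. Across all 10343 genes 56.4% had the same sign in both surgeries, with a Pearson correlation across genes of 0.20, or 0.05 with the background set as a block; genes are not independent replicates and these values are descriptions. Of the 619 genes at an unadjusted p under 0.05 in sham hearts, 368 (59.5%) had the same sign in ligated hearts. Of those 368, 41 also had an unadjusted p under 0.05 in ligated hearts. Over all 10343 genes, of either sign, 988 had an unadjusted p under 0.05 in ligated hearts.

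**Figure D5:**
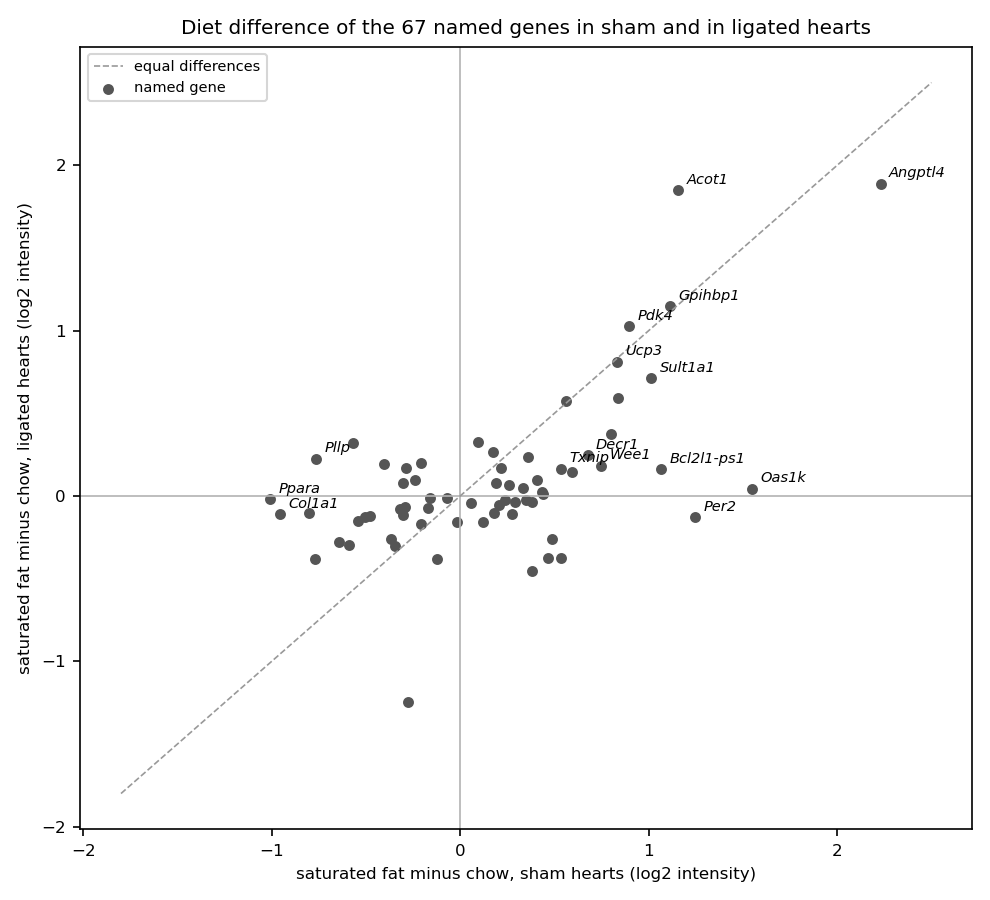
Saturated fat minus chow difference in log2 intensity of the 67 named genes, sham hearts on the horizontal and ligated hearts on the vertical axis, with a dashed line where the differences are equal. Gpihbp1, Pdk4 and Ucp3 lie near the line and Acot1 above it (1.16 against 1.85), while Decr1 (0.68 against 0.25), Oas1k (1.55 against 0.04) and Per2 (1.24 against −0.13) lie below it.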

How the data were processed

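Signals were the authors' non-normalized bead intensities on a linear scale, which the submitters' processing notes credit to BeadStudio 3, each with a detection p-value per the file headers. A second deposited table holds normalized intensity by a method not given in the sources used here, and served as an alternative. In R 4.3.3 with limma 3.58.1, neqc inferred negative controls from the detection p-values, added an offset of 16, quantile normalized the 24 arrays and took log2. Of 22517 probes, the 10540 detected on 6 or more arrays (detection p under 0.05) were kept, and the brightest probe stood for a gene, leaving 10343 genes. Names came from a RefSeq table by accession for 6330 probes, symbol for 4401, synonym for 1404 and gene ID for 5152, and 5230 kept the name in the file. limma was fitted to the means of the 4 groups (20 residual degrees of freedom) and p-values were adjusted over all genes by Benjamini-Hochberg. The code was tested on simulated data with known changes.

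The rule named 67 genes: the 10 with the smallest p (since fewer than 5 were called), every called member of 25 pathway lists and, from each of these lists, 2 more by smallest p, and fixed genes of lipid use, clock and wall stress. Members, lists and rule were chosen with earlier results of these data known. Results for a few individual genes are left out here, while every total still includes them. Arrays were not paired by any label. The high and low background sets were read from undetected probes, since no chip or date is given. A probe undetected on every array of a group was given as a bound against the lowest detected signal of each array. Genes at 75% or more of an array's highest signal (34) were called near the top of the scale. The number of animals limits precision. Each p-value sets a difference against the spread between animals of a group, pooled over the 4 groups. The p-values for sham hearts therefore also carry the spread among ligated animals.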

Additional observations from a re-analysis of the deposited data

Results flagged for a closer look

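The gap between the most extreme animal and its nearest neighbour was tested as a share of the group's range. Each named gene in each sham group gave 1 set of 6 values, 134 in all, and 14 sets were picked out. Chance picks about 1 in 20, or 6.7. The same 12 animals recur in the sets, so the sets are not independent and 14 beside 6.7 is a description only. Values are log2 intensities. Among sham fat animals, animal 20 was low for Angptl4 (7.5176) and Ppara (6.0221), animal 17 was low for Txnip (15.068), animal 34 was high for Bcl2l1-ps1 (7.8747) and Idh2 (13.138), and animal 11 was high for Cd36 (14.082). Animal 12 was low for Per2 (10.044) and Wee1 (9.8937) and high for Bmal1 (6.2232). Among sham chow animals, animal 7 was high for Acot1 (8.8202) and Por (11.419) and low for Map4k1 (7.6809) and Plin2 (10.014), and animal 22 was low for Gpihbp1 (8.2995). Fat animal 12 had a clock index of −0.61, and chow animals 7 and 40 had 1.62 and 0.87.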

How the results depend on the processing

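The sham count of 2 called genes was 1 without a detection filter, 6 in a fit of the 12 sham arrays alone, 4 with array weights, 1 with the background set as a block, and 0 in either background set alone. It ranged from 1 to 5 with each sham array left out, with 5 without sham chow animal 7. The ligated count of 1 was 0 under median scaling, 0 in a fit of its own arrays, 3 with array weights, 0 with the background block, 0 within high-background arrays and 0 with clock index and background together, and 0 to 7 with each ligated array left out. The difference between the surgeries gave 0 calls under every alternative run. Angptl4 was called in 13 of 15 alternatives, all but those within 1 background set. The cause of these changes was not tested, beyond fewer arrays entering the fits within 1 set. Of the named genes' values under an alternative, 1743 kept direction and side of the threshold, 13 passed it anew, 18 lost it and 31 changed sign. All sign changes were in genes that were not called. Plin2 turned to 0.0502 under median scaling (below the all-gene median of 0.07 there), 0.00459 in low-background arrays, 0.136 with the clock index, 0.0915 with clock index and background, and −0.208 to 0.00683 with each array left out, positive without chow animal 15. Acsl1 ranged from −0.0408, without chow animal 22, to 0.115, and Hk2 turned to 0.149 in high-background arrays. Scd turned to −0.0369 in high-background arrays, −0.172 with the clock index, −0.334 with clock index and background, and ranged from −0.103 to 0.586 with each array left out, negative in 3 of 12. Per3 turned to 0.0125 under median scaling, 0.0147 with the block, 0.217 in high-background arrays, and −0.0991 to 0.0349 with each array left out, positive in 6 of 12. Nr1d1 turned to 0.00406 in low-background arrays, and Dbp to −0.117 with the clock index and −0.076 with clock index and background. Dbp is 1 of the 6 genes averaged in the index, so those 2 fits take out part of its own difference. Nppa turned to 0.24 in low-background arrays, 0.125 with the clock index, 0.0541 with clock index and background, and −0.406 to 0.0306 with each array left out. Acta1 turned to 0.154 in low-background arrays and ranged from −0.309 to 0.111. For both of them only leaving out chow animal 15 turned the sign. Of the lists' medians, 1059 stayed within the spread between replicates and 21 did not, 11 of these under median scaling, where the all-gene median was 0.07.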

Other observations

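A list of 17 genes known from textbooks to be induced by glucocorticoids was drawn up after Zbtb16, Klf9 and Tsc22d3 had been seen among the genes with small p, so its counts are a description only. Of 14 that were tested, 12 had a positive and 2 a negative saturated fat minus chow difference in sham hearts, with a median of 0.29, and 7 had a positive and 7 a negative difference in ligated hearts, with a median of 0.01. Over all genes the medians were 0.00 and −0.01. At an unadjusted p under 0.05, 7 were higher and 0 lower in sham fat hearts (3.41% and 2.57% over all genes), and none passed the adjusted threshold. Klf9, a transcription factor, read 12.85 to 13.12 in sham fat hearts and 12.27 to 12.78 in sham chow hearts, with no overlap (difference 0.39, adjusted p = 0.391; −0.12 in ligated hearts). Tsc22d3, the leucine zipper GILZ, read 12.80 to 13.22 in sham fat hearts and 12.17 to 12.91 in sham chow hearts (difference 0.53, adjusted p = 0.483; 0.03 in ligated hearts). Cebpb, a leucine zipper factor, read 12.14 to 12.65 in sham fat hearts and 11.22 to 12.17 in sham chow hearts (difference 0.62, adjusted p = 0.564). Fkbp5, a cochaperone of the glucocorticoid receptor, differed by 0.55 (adjusted p = 0.621). Sgk1 differed by 0.04 and Dusp1 by −0.09. For these genes the difference between the surgeries did not pass the test (adjusted p = 0.881 or above), and Per1 is also a core clock gene.

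Fmo2, a flavin monooxygenase of the lung and heart, read 8.23, 9.23 and 9.90 in sham fat hearts and 7.73, 7.90 and 8.88 in sham chow hearts (difference 1.01, adjusted p = 0.501; 0.46 in ligated hearts). Rab3b, a vesicle GTPase, read 6.45, 6.47 and 8.21 in sham fat hearts and 6.96, 8.16 and 9.01 in sham chow hearts (difference −1.23, adjusted p = 0.564), while the ligated hearts gave 0.95. Its difference between the surgeries was −2.18 (unadjusted p = 0.000823, adjusted p = 0.881). Both genes were chosen after their values were seen.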
